A study of Mus musculus with 14 samples.

Results

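A set of 45 cell cycle and proliferation genes was followed through 14 RNA-seq libraries of intestinal regulatory T cells (Tregs) in which JunB was present or deleted. The genes were listed by name, 19 for the synthesis of DNA (S phase) and 26 for mitosis, with earlier results of these data known. They are 45 of the 53801 gene IDs listed for the Foxp3-YFP-cre mice and of the 55487 listed for the inducible mice, and both tables held all of them. No member was missing or had a count of 0 in any library.

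The libraries were made from sorted Tregs of 3 populations. Total Peyer's patch (PP) Tregs came from 2 JunB F/+ Foxp3YFPcre (HET) and 2 JunB F/F Foxp3YFPcre (KO) male mice, which were generally 8 to 12 weeks old and received no treatment. The sort of these cells was narrower than all CD4+ Foxp3(YFP)+ cells. CD25- PP Tregs (TCRb+ CD4+ Foxp3(EGFP)+ tdTomato+ CD25-) came from 2 JunB F/+ (iHET) and 2 JunB F/F (iKO) mice that carried Foxp3ERT2cre and Rosa26-tdTomato. Colonic Tregs (TCRb+ CD4+ Foxp3(EGFP)+ tdTomato+) came from the lamina propria of 3 iHET and 3 iKO mice of that line, without a CD25 gate. All mice of the inducible line, 10 to 12 weeks old, were given tamoxifen by gavage in 3 doses of 8 mg on days 0, 1 and 3, with collection on day 7. Mice numbered 1 were male and mice numbered 2 and 3 were female. The controls were not wild type, since HET and iHET Tregs also lost 1 Junb allele. Deletion was driven from the Foxp3 locus in both lines, and Cre of the YFP line was also active outside Tregs, which limits that line as a model of deletion in Tregs alone.

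Dividing cells express these genes in waves. Transcription factors of the E2F family switch on the S phase genes, whose products are the cyclins E, the MCM helicase that opens DNA at origins, and the enzymes that make deoxynucleotides. Later, complexes that contain B-Myb and FoxM1 act at promoters of mitosis genes, which encode cyclins A and B, Cdk1, the mitotic kinases and the motors and kinetochore proteins of the spindle. In a population of sorted cells the mRNA of these genes rises with the share of cells in cycle, and Tregs of non-lymphoid tissue are known to cycle more than resting Tregs. In bulk RNA a smaller share of cycling cells and less RNA per cycling cell cannot be told apart.

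Promoters of the members differ in letters that are known from the 2 waves, and 6 of them are shown because they carry these letters clearly and belong to genes described below. RefSeq promoter windows of build GRCm38.p6, 300 bases each from 250 bases before to 50 after the start of the gene, were found for 38 of the 45 members (16 of S phase, 22 of mitosis). Ccna2, Ccne2, Aurkb, Mcm4, Tpx2, Kif20a and Gins2 had no window. The last 160 bases before the start are printed 5′ to 3′ on the strand of the gene. Capitals mark matches to the cell cycle homology region (CHR, searched as TTTGAA or TTCGAA) and to an E2F motif (searched as TTTCCCGC, TTTCGCGC, TTTGCCGC or TTTGGCGC), on both strands. The windows lie at chr2:164769769-164769928 on the plus strand for Ube2c, chr10:69352913-69353072 on the minus strand for Cdk1, chr4:118437344-118437503 on the minus strand for Cdc20, chr7:135716380-135716539 on the minus strand for Mki67, chr8:75109349-75109508 on the plus strand for Mcm5 and chr1:128359706-128359865 on the minus strand for Mcm6.
Ube2c: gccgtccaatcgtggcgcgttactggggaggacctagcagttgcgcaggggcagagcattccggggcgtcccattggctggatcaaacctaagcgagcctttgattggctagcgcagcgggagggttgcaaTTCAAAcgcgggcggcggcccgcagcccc
Cdk1: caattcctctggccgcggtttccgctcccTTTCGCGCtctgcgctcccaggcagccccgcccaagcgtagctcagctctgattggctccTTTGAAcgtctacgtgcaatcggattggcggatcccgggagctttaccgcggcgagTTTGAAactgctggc
Cdc20: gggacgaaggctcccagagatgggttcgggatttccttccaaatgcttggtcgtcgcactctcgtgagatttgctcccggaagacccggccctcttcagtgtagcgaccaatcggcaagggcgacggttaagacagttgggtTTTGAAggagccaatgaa
Mki67: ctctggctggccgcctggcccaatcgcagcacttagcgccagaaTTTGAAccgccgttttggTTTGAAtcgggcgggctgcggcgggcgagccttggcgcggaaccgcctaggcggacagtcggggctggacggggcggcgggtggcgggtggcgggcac
Mcm5: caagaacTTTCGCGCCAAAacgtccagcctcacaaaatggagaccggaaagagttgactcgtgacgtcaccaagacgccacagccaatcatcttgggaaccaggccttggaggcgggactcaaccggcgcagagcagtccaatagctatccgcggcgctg
Mcm6: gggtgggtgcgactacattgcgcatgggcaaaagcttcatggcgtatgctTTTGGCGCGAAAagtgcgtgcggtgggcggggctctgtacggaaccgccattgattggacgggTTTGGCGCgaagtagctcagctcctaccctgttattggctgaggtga

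The 4 mitosis promoters each held a CHR match, at 29 bases before the start in Ube2c, 18 in Cdc20, 71 and 15 in Cdk1, and 116 and 98 in Mki67. The 2 S phase promoters held E2F matches and no CHR match, at 153 and 149 bases before the start in Mcm5 and at 110, 106 and 47 in Mcm6. The matches at 153 and 149 in Mcm5 and at 110 and 106 in Mcm6 are on opposite strands and overlap each other. The 38 members had 41 windows, and a gene was counted if any of its windows matched, whereas the shares over all promoters are per window. A CHR match was present for 18 of 22 mitosis genes (81.8%) and 4 of 16 S phase genes (25%), beside 19.2% of all 32851 windows. An E2F match was present for 6 of 16 S phase genes (37.5%, namely Cdc6, Mcm3, Mcm5, Mcm6, Mcm7 and Uhrf1) and for 1 of 22 mitosis genes (4.55%, Cdk1), beside 2.26% of all windows. CCAAT, the box bound by NF-Y, was present on either strand for 19 mitosis genes (86.4%) and 11 S phase genes (68.8%), beside 37.4% of all windows. Both CHR and CCAAT were present for 17 mitosis and 4 S phase genes and in 7.52% of all windows. The AP-1 motif (TGACTCA or TGAGTCA), which JunB is known to bind as part of AP-1, was present for 0 of the 38 genes and in 5.2% of all windows. Only these letters were searched for AP-1, so other sites could have been missed. These matches describe letters in 300 bases, and no binding was measured at them.

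Each library held 26274861 to 35508709 counted reads, and a floor of 3 counts was at 0.0845 to 0.114 CPM (counts scaled to the size of the library). In PP Tregs, Junb was at 4752 and 5329 CPM (HET) against 606 and 561 CPM (KO), with a log2 fold change of -3.11 (edgeR adjusted p = 4.7e-05). In the inducible line it was at 5547 and 4182 CPM in iHET against 891 and 911 CPM in iKO CD25- PP Tregs, and at 6865, 8471 and 7514 CPM in iHET against 1012, 993 and 1029 CPM in iKO colonic Tregs, so each library matched its label. Its log2 fold change was -2.91 in the colon (edgeR adjusted p = 0.018) and -2.44 in CD25- PP Tregs, where even this gene missed the threshold (edgeR adjusted p = 0.094). The 10 Treg and T cell markers summed to between 6752 and 11089 CPM in every library, and Foxp3 and Cd3e were among them. Library 3 of the iHET colon stood apart for the cell cycle genes. It was the highest of the 10 libraries of the inducible line for 43 of the 45 members (17 of S phase and 26 of mitosis), and results that rest on it are given with and without it. Among the 4 libraries of the Foxp3-YFP-cre line, HET library 1 was the highest for 35 of the 45 members.

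The plot of class means shows these libraries. In the colon, the mean over the 19 S phase genes was 4.52 and 4.28 log2 CPM in iHET libraries 1 and 2, 5.71 in iHET library 3, and 5.02, 4.58 and 4.29 in the iKO libraries. The mean over the 26 mitosis genes was 3.10 and 3.29 in iHET libraries 1 and 2, 5.17 in iHET library 3, and 3.89, 3.47 and 3.63 in the iKO libraries. Apart from iHET library 3 the colonic libraries covered less than 1 unit on the log2 scale in either class. CD25- PP Tregs had S phase means of 3.71 and 4.30 in iHET and 4.14 and 3.81 in iKO, and mitosis means of 2.27 and 2.80 in iHET and 2.62 and 2.39 in iKO. Every colonic library was above every CD25- PP library for mitosis genes, whereas for S phase genes the lowest colonic library (4.28) was below the highest CD25- PP library (4.30). Total PP Tregs had S phase means of 4.96 and 4.76 in HET and 4.80 and 4.70 in KO, and mitosis means of 3.61 and 3.10 in HET and 3.14 and 3.29 in KO.

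**Figure D1:**
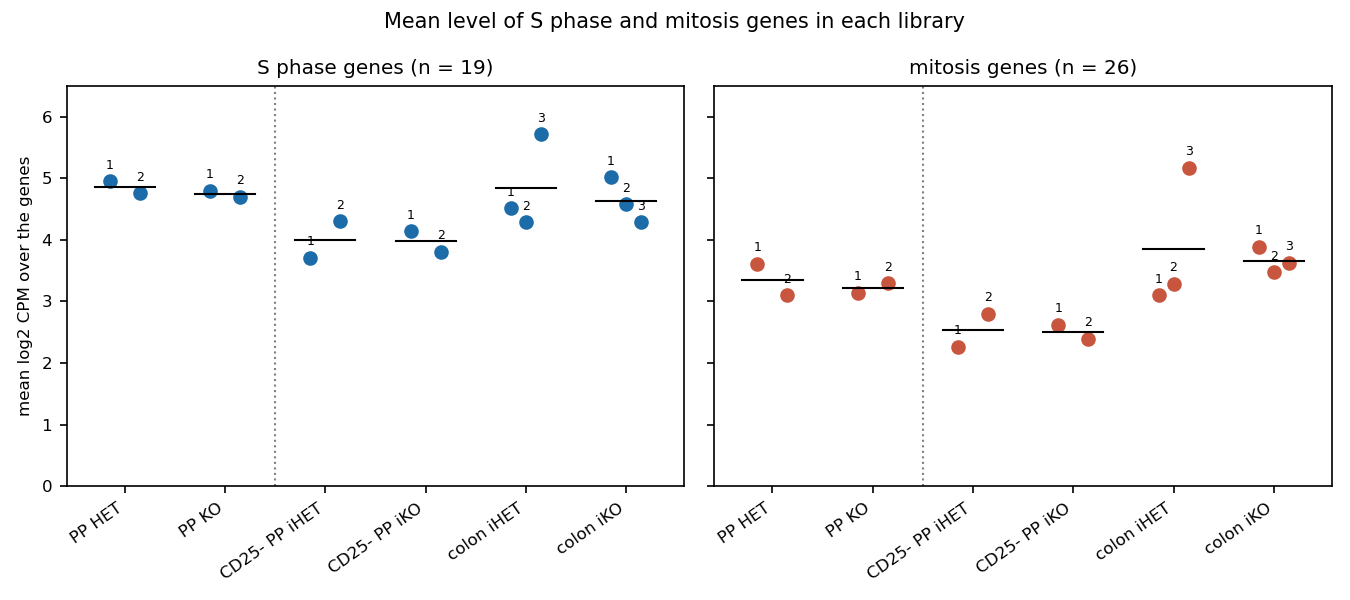
Mean log2 CPM of the 19 S phase and the 26 mitosis genes (y axis) in each of the 14 libraries (points), by group on the x axis, with horizontal bars for the group means; tables of the 2 lines were normalised separately. iHET library 3 of the colon is the highest point of both classes (5.71 and 5.17), and the other colonic libraries lie between 4.28 and 5.02 for S phase and between 3.10 and 3.89 for mitosis genes.

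Levels per length, as CPM per kilobase of exon, set the members in order. All levels in this and the next paragraph are means of the 2 HET libraries of PP Tregs. The MCM2-7 helicase gave the 4 highest levels of the S phase group, with Mcm6 at 102, Mcm4 at 47.0, Mcm3 at 29.2, Mcm5 at 24.2, Mcm2 at 20.9 and Mcm7 at 15.0 CPM per kb. Genes that load or start this helicase were at low levels, with Cdc45 at 3.06, Gins2 at 1.68 and Cdc6 at 1.40 CPM per kb. Pcna, the sliding clamp of DNA polymerases, was at 21.3, and Uhrf1, which keeps DNA methylation through replication, at 5.34 CPM per kb. Of the genes that make deoxynucleotides, Rrm2 was at 18.8, Rrm1 at 10 and Tyms at 3.55 CPM per kb. Regulators of entry into S phase were among the lowest, with E2f1 at 3.58, Ccne2 at 2.99, Ccne1 at 2.75, E2f8 at 0.767 and the checkpoint kinase Chek1 at 0.618 CPM per kb.

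Mitosis genes were lower and more even. Cenpa, the histone H3 variant of the centromere, was the highest at 18.3 CPM per kb, followed by Ccnb2 at 8.40 and Cdc20, an activator of the anaphase-promoting complex, at 6.34. Top2a was at 4.69 and the checkpoint gene Bub1b at 3.61 CPM per kb. The kinases Aurkb, Aurka and Plk1 were at 3.86, 3.41 and 2.94, and Birc5 (survivin), a partner of Aurkb, at 2.69 CPM per kb. Ccna2 was at 2.95, Ube2c, the E2 enzyme of the anaphase-promoting complex, at 2.27, Mki67 at 1.96, Cdk1 at 1.57 and Ccnb1 at 0.866 CPM per kb. Among spindle genes, Nusap1 was at 2.91, Kif20a at 2.75, Tpx2 at 2.48, Kif11 at 2.4, Kif23 at 1.82, Prc1 at 1.52 and Hmmr at 0.871 CPM per kb. Ndc80 and Cenpe, which attach chromosomes to microtubules, were at 1.85 and 0.960, and the checkpoint kinases Bub1 and Ttk at 1.29 and 0.60 CPM per kb. Cenpf was the lowest at 0.187 CPM per kb.

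The order differed in the inducible line. Mcm6 was again the highest S phase gene, at 55.0 CPM per kb in iHET CD25- PP and 54.8 in iHET colonic Tregs. Kif11, the motor that separates spindle poles, was the highest mitosis gene of the iHET colon at 22.0 CPM per kb, and Cenpf was at 5.29 CPM per kb there. Kif11 was at 14 to 20.1 CPM over the 4 libraries of total PP Tregs, at 124 to 138 CPM in CD25- PP Tregs and at 110 to 229 CPM in the colon. Cenpf was at 2.26 to 5.34 CPM in total PP Tregs, at 33.3 to 48.3 CPM in CD25- PP Tregs and at 63.4 to 93.6 CPM in the colon. For both genes no library of one line overlapped those of the other. The 2 tables were normalised separately and differ in mouse line, sort, sequencer and read layout, so no test was made across them and these cannot be told apart.

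Among S phase genes, Mcm5, a subunit of the MCM helicase whose promoter is printed above, was at 108 and 85.2 CPM in HET against 92.5 and 81.9 CPM in KO PP Tregs. It was at 51.9 and 71.8 CPM in iHET and 48.4 and 58.1 CPM in iKO CD25- PP Tregs, and at 86.9, 68.6 and 176 CPM in iHET and 114, 77.8 and 81.1 CPM in iKO colonic Tregs. Genotypes overlapped in all 3 populations, and iHET library 3 was well above all other colonic libraries.

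Pcna was at 49.4 and 53.0 CPM in HET against 44.9 and 47.7 CPM in KO PP Tregs. It was at 32.3 and 32.7 CPM in iHET and 35.1 and 33.8 CPM in iKO CD25- PP Tregs, and at 43.0, 57.2 and 58.2 CPM in iHET and 62.4, 53.8 and 49.6 CPM in iKO colonic Tregs. This gene was steadier than the others, and iHET library 3 was not its highest library. All 6 colonic libraries were above all 4 CD25- PP libraries. Rrm2, the regulated subunit of ribonucleotide reductase, was at 56.7 and 47.3 CPM in HET against 42.1 and 45.8 CPM in KO PP Tregs. It was at 14.2 and 23.0 CPM in iHET and 20.1 and 15.0 CPM in iKO CD25- PP Tregs, and at 27.4, 24.1 and 116 CPM in iHET and 48.8, 33.2 and 23.2 CPM in iKO colonic Tregs. Each colonic library was above each CD25- PP library, the lowest by only 23.2 against 23.0 CPM.

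Tyms, thymidylate synthase, was at 23.5 and 19.7 CPM in HET against 21.4 and 20.3 CPM in KO PP Tregs. It was at 11.1 and 14.8 CPM in iHET and 11.9 and 17.0 CPM in iKO CD25- PP Tregs, and at 14.4, 15.5 and 40.8 CPM in iHET and 18.9, 17.4 and 22.8 CPM in iKO colonic Tregs, so genotypes and organs overlapped. Ccne1 (cyclin E1), which drives Cdk2 into S phase, was at 6.46 and 8.19 CPM in HET against 5.63 and 6.42 CPM in KO PP Tregs. It was at 2.72 and 6.26 CPM in iHET and 5.26 and 2.70 CPM in iKO CD25- PP Tregs, and at 4.62, 4.38 and 7.64 CPM in iHET and 8.25, 5.41 and 4.32 CPM in iKO colonic Tregs. Its highest colonic library was iKO library 1. E2f1, an activator of the S phase wave, was at 11.7 and 10.9 CPM in HET against 10.1 and 10.4 CPM in KO PP Tregs. It was at 3.92 and 7.47 CPM in iHET and 5.20 and 3.39 CPM in iKO CD25- PP Tregs, and at 8.17, 7.04 and 29.7 CPM in iHET and 13.7, 7.98 and 9.30 CPM in iKO colonic Tregs. The KO values of both Ccne1 and E2f1 were just below the HET values in PP Tregs.

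Among mitosis genes, Mki67, which encodes the proliferation marker Ki-67, was at 22.3 and 17.0 CPM in HET against 19.1 and 22.6 CPM in KO PP Tregs. It was at 16.7 and 13.1 CPM in iHET and 16.1 and 14.2 CPM in iKO CD25- PP Tregs, and at 23.9, 26 and 71.5 CPM in iHET and 36.5, 26 and 23.3 CPM in iKO colonic Tregs. All colonic libraries were above all CD25- PP libraries, and genotypes overlapped in each population. Top2a, topoisomerase II of dividing cells, was at 48.4 and 36.1 CPM in HET against 40 and 37.4 CPM in KO PP Tregs. It was at 24.5 and 18.8 CPM in iHET and 26.2 and 25.3 CPM in iKO CD25- PP Tregs, and at 34.9, 31.8 and 137 CPM in iHET and 45.4, 37.0 and 37.4 CPM in iKO colonic Tregs. Here too the colonic libraries lay above those of CD25- PP Tregs.

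Cdk1, the kinase that starts mitosis with cyclins A and B, was at 9.01 and 6.52 CPM in HET against 8.04 and 8.98 CPM in KO PP Tregs. It was at 6.57 and 6.33 CPM in iHET and 7.08 and 8.67 CPM in iKO CD25- PP Tregs, and at 10.9, 10.9 and 38.7 CPM in iHET and 17.0, 9.73 and 16.1 CPM in iKO colonic Tregs. The iKO values of CD25- PP Tregs were above the iHET values, and both were below the colon. Ccnb1 (cyclin B1) was at 4.68 and 2.62 CPM in HET against 2.48 and 3.63 CPM in KO PP Tregs. It was at 0.241 and 1.21 CPM in iHET and 0.912 and 0.364 CPM in iKO CD25- PP Tregs, from 7 to 35 counts, and at 1.63, 0.959 and 9.87 CPM in iHET and 2.34, 1.25 and 2.54 CPM in iKO colonic Tregs. At these counts Ccnb1 did not pass the filter of the CD25- PP comparison.

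Birc5 was at 10.4 and 7.94 CPM in HET against 6.60 and 9.64 CPM in KO PP Tregs. It was at 2.10 and 3.94 CPM in iHET and 2.22 and 2.77 CPM in iKO CD25- PP Tregs, and at 2.42, 4.47 and 34.3 CPM in iHET and 10.8, 7.22 and 7.65 CPM in iKO colonic Tregs. Its 3 colonic iKO libraries were above iHET libraries 1 and 2 and below iHET library 3. Plk1, polo-like kinase 1, was at 8.10 and 4.84 CPM in HET against 6.39 and 6.34 CPM in KO PP Tregs. It was at 1.93 and 2.32 CPM in iHET and 2.10 and 1.49 CPM in iKO CD25- PP Tregs, and at 2.24, 1.98 and 16.1 CPM in iHET and 5.03, 4.55 and 10.7 CPM in iKO colonic Tregs. The same order was seen for Plk1 in the colon. iHET library 3 was the highest library of the inducible line for all of these 12 genes except Pcna and Ccne1. The plot of 8 genes shows the distance of that library from its group.

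**Figure D2:**
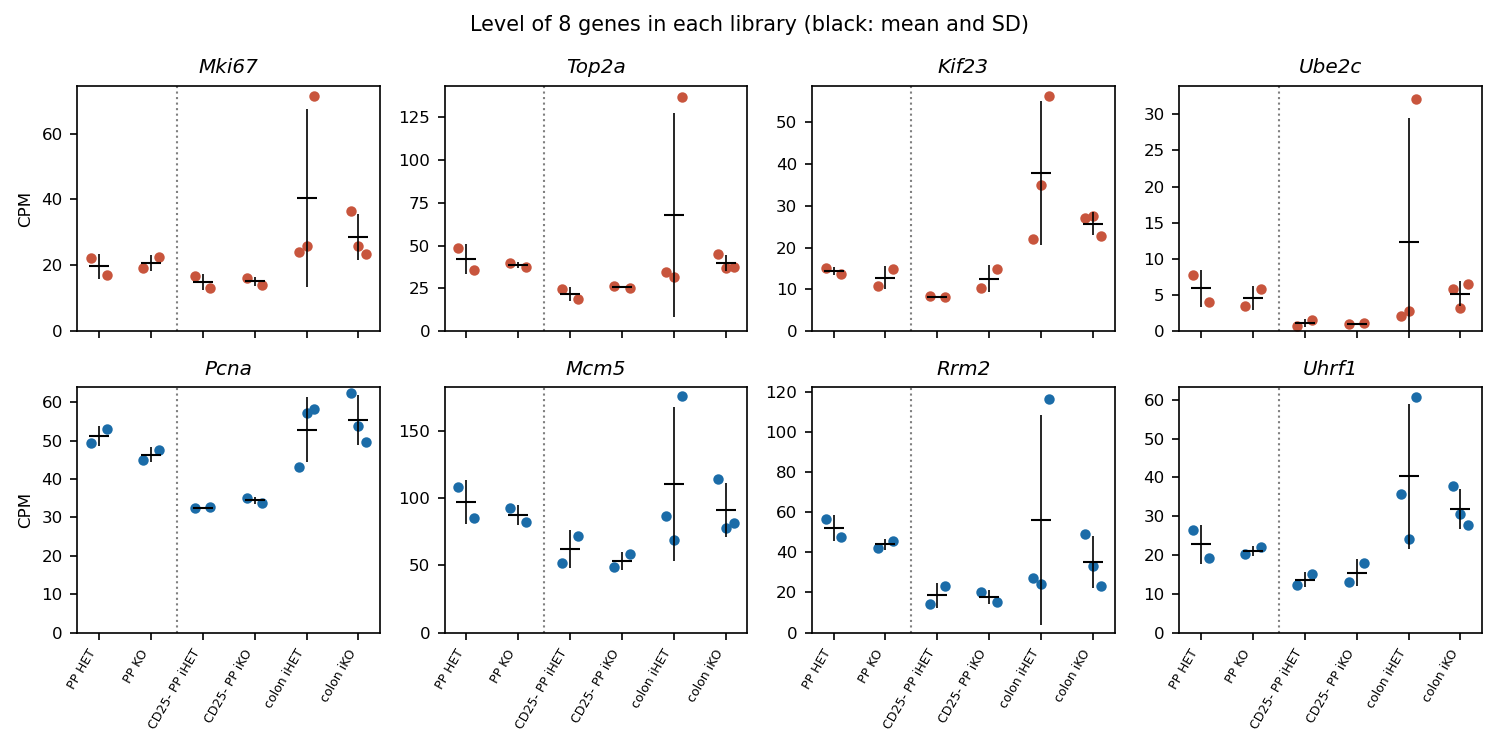
CPM (y axis of each panel, linear from 0) of the mitosis genes Mki67, Top2a, Kif23 and Ube2c (red) and the S phase genes Pcna, Mcm5, Rrm2 and Uhrf1 (blue) in the 14 libraries (points) by group on the x axis, with the group mean and SD in black; the SD bar of Ube2c in colon iHET is cut at 0. For Mki67 the colonic libraries run from 23.3 to 71.5 CPM and those of CD25- PP Tregs from 13.1 to 16.7 CPM, and the highest colonic point is iHET library 3.

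The distance of iHET library 3 from the other colonic libraries was larger for mitosis than for S phase genes. Its CPM divided by the median of the other 5 colonic libraries had a median of 2.07 over S phase and 3.46 over mitosis genes, and was at least 2 for 30 of the 45 members. The ratio was 9.91 for Ube2c (32.0 CPM against 2.10 to 6.54 CPM) and 9.62 for Ttk (8.89 CPM against 0.817 to 4.56 CPM). Rrm2 reached 4.25, Top2a 3.70 and Mki67 2.75. The ratio was near 1 for Cenpa (1.24), Mcm4 (1.27) and Pcna (1.08). The same library had the highest mean of the 9 myeloid markers (4.29 log2 CPM against 1.93 to 3.27 in the other colonic libraries) and of the 11 B cell markers (2.91 against 0.84 to 1.88). The part of these markers in the distance was not tested. In CD25- PP Tregs, iHET library 1 was the lowest of the 10 libraries of the line for 17 members and iKO library 2 for 14. The heat map of the members shows these columns.

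**Figure D3:**
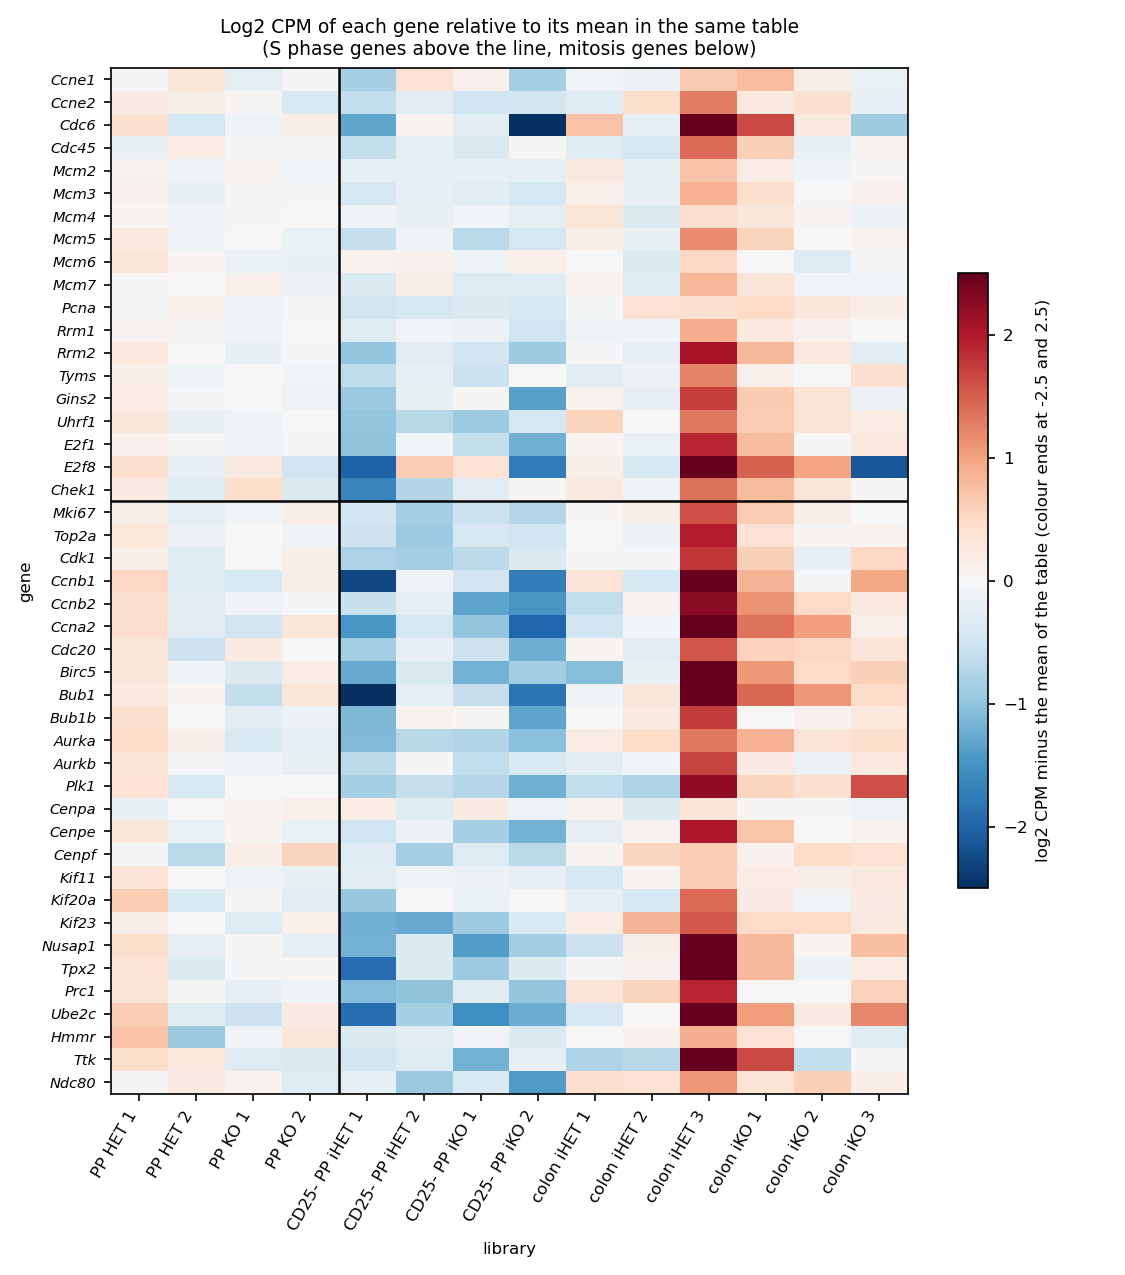
Log2 CPM of each of the 45 genes (rows, by role) in the 14 libraries (columns, by group), as the difference from the mean of that gene over the libraries of the same mouse line, by colour (red above, blue below, with the ends of the scale at -2.5 and 2.5). The column of iHET library 3 of the colon is the highest of its line in 43 rows.

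The question of the organ comparison is whether colonic and CD25- PP Tregs of the inducible line differ in these genes. It set the 6 colonic against the 4 CD25- PP libraries, with genotype in the model. Sex was not in this model, although the share of female mice was higher in the colon. The organ and the gate cannot be told apart, because only the PP cells were sorted as CD25-. All 45 members were tested, and 14 of them were higher in the colon (quasi-likelihood test of edgeR, false discovery rate (FDR) of 0.05), 2 of S phase and 12 of mitosis. Over the 18626 genes tested, 10% were called higher and 7.29% lower, and no member was called lower. The estimate was above 0 for 44 of 45 members, with a median log2 fold change of 0.69 over S phase and 1.39 over mitosis genes, beside 0.00 over all genes tested. All 6 colonic libraries were above all 4 CD25- PP libraries for 16 members (5 of S phase and 11 of mitosis), beside 9.05% of all genes tested. At an unadjusted p under 0.05 there were 33 members, all higher in the colon, beside 17.7% of all genes tested that were higher at that p. Ccnb1 and Bub1 passed the filter only through the colon, where they were high. Without these 2 genes the estimate was above 0 for 42 of 43 members, the median over mitosis genes was 1.27, and 15 members had no overlap.

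Both S phase genes that were called act at the replication fork. Pcna averaged 52.8 ± 8.48 CPM in iHET and 55.3 ± 6.48 CPM in iKO colonic Tregs (SD, n = 3), against 32.5 ± 0.265 and 34.5 ± 0.975 CPM in CD25- PP Tregs (SD, n = 2). Its log2 fold change was 0.69 (SE 0.12, edgeR adjusted p = 0.0045). Uhrf1 was at 35.7, 24.2 and 60.8 CPM in iHET and 37.7, 30.5 and 27.7 CPM in iKO colonic Tregs, against 12.3 and 15.0 CPM in iHET and 13.0 and 18.0 CPM in iKO CD25- PP Tregs. The groups did not overlap, and the log2 fold change was 1.30 (SE 0.24, edgeR adjusted p = 0.0072). Of the other S phase genes, Cdc6, which loads the MCM helicase, had the highest estimate, 1.89 (SE 0.71, adjusted p = 0.11), or 1.24 without iHET library 3. Chek1, a kinase of the replication checkpoint, was at 2.84, 2.28 and 6.36 CPM in iHET and 4.25, 3.00 and 2.48 CPM in iKO colonic Tregs, and at 0.756, 1.45, 2.01 and 2.48 CPM in CD25- PP Tregs. It overlapped and had the lowest p of those not called (1.1, SE 0.36, adjusted p = 0.056). Mcm6 had the lowest estimate, -0.06 (SE 0.16, adjusted p = 0.83), at 187 to 343 CPM in the colon and 218 to 261 CPM in CD25- PP Tregs. The members of the MCM helicase thus covered -0.06 to 0.81 (Mcm5, SE 0.25, adjusted p = 0.058), and none of the 6 was called.

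Among spindle and cytokinesis genes, 3 of 7 were called. Kif23, a motor of the midzone that cells need for cytokinesis and the member with the lowest p, was at 22.1, 35 and 56.2 CPM in iHET and 27.1, 27.4 and 22.6 CPM in iKO colonic Tregs, against 8.42 and 8.10 CPM in iHET and 10.3 and 14.8 CPM in iKO CD25- PP Tregs. Its groups did not overlap, and the log2 fold change was 1.61 (SE 0.24, edgeR adjusted p = 0.0025). Prc1, which bundles microtubules of the midzone and has 911 exon bases in common with Rccd1, was at 9.41, 11.1 and 28.2 CPM in iHET and 7.56, 7.45 and 11.2 CPM in iKO colonic Tregs, against 3.54 and 3.74 CPM in iHET and 6.11 and 3.79 CPM in iKO CD25- PP Tregs. All colonic libraries were above those of CD25- PP Tregs, with a log2 fold change of 1.48 (SE 0.32, edgeR adjusted p = 0.015). Nusap1, a spindle protein with 172 exon bases in common with Oip5, was at 3.69, 5.99 and 31.9 CPM in iHET and 9.34, 5.54 and 9.02 CPM in iKO colonic Tregs, against 2.34 and 4.15 CPM in iHET and 2.01 and 2.91 CPM in iKO CD25- PP Tregs. Here the organs overlapped, and its estimate of 1.88 (SE 0.54) was just inside the threshold (edgeR adjusted p = 0.049). Without iHET library 3 it was 1.13 (edgeR adjusted p = 0.027). Kif11 (0.36, adjusted p = 0.18), Hmmr (0.48, 0.14), Kif20a (0.55, 0.33) and Tpx2 (1.64, 0.078) were not called.

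At the kinetochore, Cenpf was at 63.4, 87.8 and 93.6 CPM in iHET and 64.6, 83.3 and 78.0 CPM in iKO colonic Tregs, against 48.0 and 33.3 CPM in iHET and 48.3 and 37.8 CPM in iKO CD25- PP Tregs. The organs did not overlap, and the log2 fold change was 0.90 (SE 0.15, edgeR adjusted p = 0.0050). Ndc80 was at 29.9, 29.1 and 48.2 CPM in iHET and 28.5, 34.2 and 25.4 CPM in iKO colonic Tregs, against 18.9 and 11.8 CPM in iHET and 17.4 and 8.38 CPM in iKO CD25- PP Tregs. Again the organs did not overlap (log2 fold change 1.2, SE 0.24, edgeR adjusted p = 0.011). Cenpa, in contrast, had an estimate of 0.00 (SE 0.15), at 76.0 to 122 CPM in the colon and 77.8 to 111 CPM in CD25- PP Tregs, and its sign changed with the normalization. Among kinases, Aurka, which builds spindle poles, was at 6.68, 8.09 and 14.8 CPM in iHET and 10.7, 7.36 and 7.94 CPM in iKO colonic Tregs, against 2.72 and 3.63 CPM in iHET and 3.47 and 2.84 CPM in iKO CD25- PP Tregs. It was the only one of the 7 genes for mitotic kinases and their partners that was called, with a log2 fold change of 1.54 (SE 0.25, edgeR adjusted p = 0.0045).

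Of the genes of cyclins A and B and of the anaphase-promoting complex, 4 of 5 were called. Ube2c, whose promoter is printed above, was at 2.10, 2.82 and 32.0 CPM in iHET and 5.81, 3.23 and 6.54 CPM in iKO colonic Tregs, against 0.722 and 1.56 CPM in iHET and 0.942 and 1.17 CPM in iKO CD25- PP Tregs. No library of one organ overlapped those of the other, and the log2 fold change was 2.83 (SE 0.72, edgeR adjusted p = 0.034), the highest of the 45, which was 1.68 without iHET library 3 (edgeR adjusted p = 0.011). Ube2c has 592 exon bases in common with Tnnc2. Ccna2 (cyclin A2; 510 exon bases in common with Exosc9) was at 5.36, 7.22 and 55.6 CPM in iHET and 19.3, 15.3 and 8.22 CPM in iKO colonic Tregs, against 2.75 and 5.64 CPM in iHET and 3.83 and 1.89 CPM in iKO CD25- PP Tregs. It overlapped by 1 library (log2 fold change 2.36, SE 0.63, edgeR adjusted p = 0.040), and the fold change was 1.44 without iHET library 3 (edgeR adjusted p = 0.024). Ccnb2 (cyclin B2) was at 6.0, 9.62 and 44.0 CPM in iHET and 20.2, 13.1 and 10.9 CPM in iKO colonic Tregs, against 6.22 and 7.78 CPM in iHET and 3.65 and 3.35 CPM in iKO CD25- PP Tregs. Here 2 CD25- PP libraries were above the lowest colonic one, and the log2 fold change was 1.78 (SE 0.49, edgeR adjusted p = 0.040), or 1.11 without iHET library 3 (edgeR adjusted p = 0.015). Cdc20 (53 exon bases in common with Elovl1) was at 7.64, 6.17 and 22.2 CPM in iHET and 11.1, 10.7 and 9.24 CPM in iKO colonic Tregs, against 4.13 and 6.43 CPM in iHET and 5.17 and 3.17 CPM in iKO CD25- PP Tregs. It also overlapped by 1 library, with an estimate of 1.24 (SE 0.36, edgeR adjusted p = 0.044), or 0.84 without iHET library 3 (edgeR adjusted p = 0.031).

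Mki67 rose with a log2 fold change of 1.18 (SE 0.30, edgeR adjusted p = 0.030), and Cdk1 with one of 1.25 (SE 0.37, edgeR adjusted p = 0.048). Without iHET library 3 these were 0.82 (edgeR adjusted p = 0.011) and 0.80 (edgeR adjusted p = 0.022). Top2a had an estimate of 1.1 (SE 0.37, adjusted p = 0.071), Birc5 of 1.97 (SE 0.63, adjusted p = 0.071), Plk1 of 1.78 (SE 0.58, adjusted p = 0.074) and Ccnb1 of 2.04 (SE 0.70, adjusted p = 0.083), none of them called. Bub1 had 2 counts in iHET library 1 of CD25- PP Tregs, under the floor, and no fold is given. Without iHET library 3 the estimates were 0.62 for Top2a and 0.98 for Birc5, which then passed (edgeR adjusted p = 0.011 and 0.044), and 0.94 for Plk1 and 1.21 for Ccnb1, which did not (edgeR adjusted p = 0.067 and 0.15). The plot of organ differences shows the estimates of all members.

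**Figure D4:**
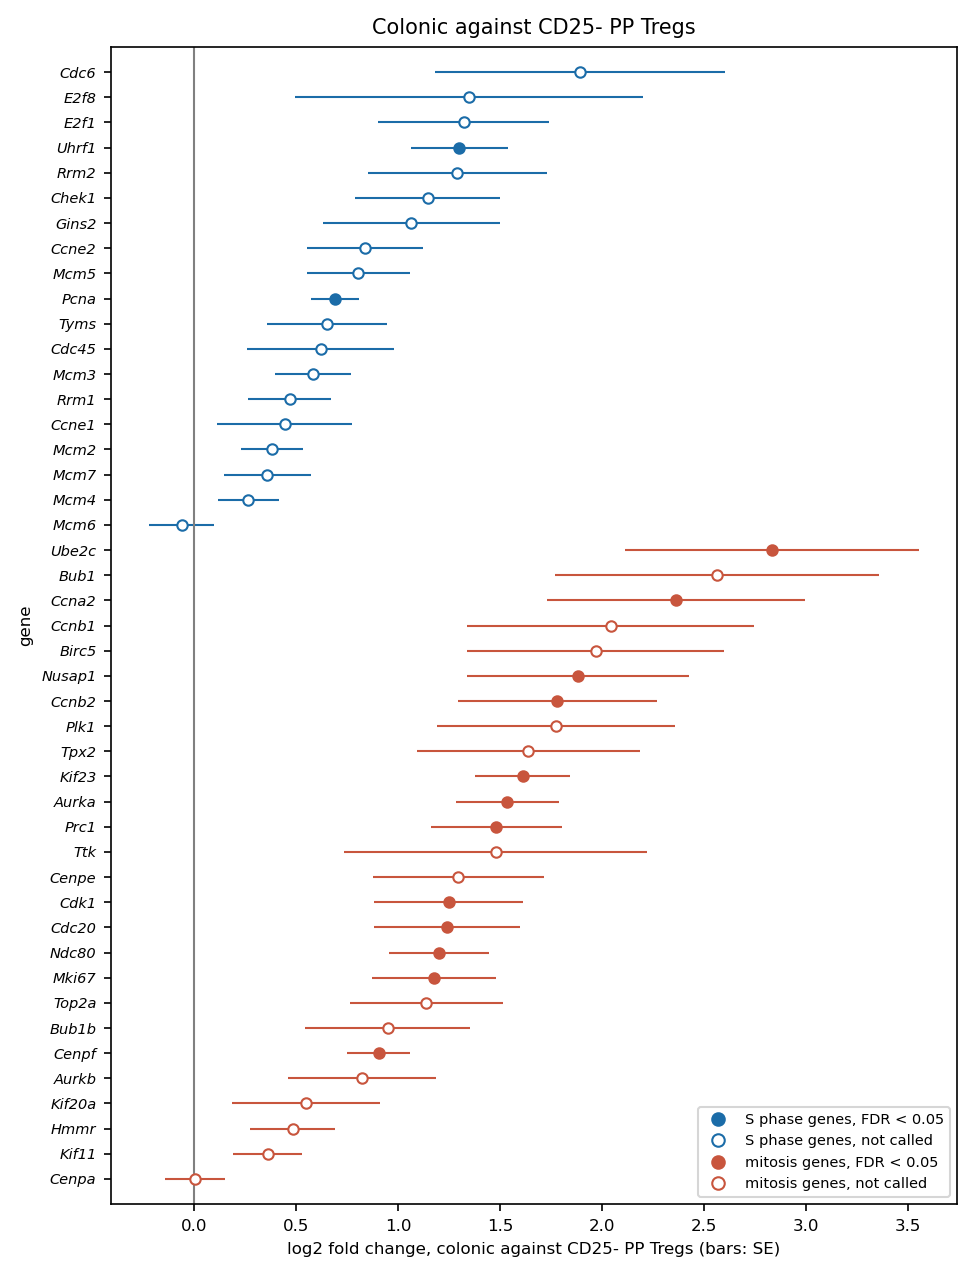
Log2 fold change of colonic against CD25- PP Tregs (x axis) for the 45 genes (rows, S phase in blue and mitosis in red, sorted by estimate), with bars of 1 SE and filled points for FDR under 0.05. Of 45 points 44 lie above 0 and 14 are filled, from 0.69 for Pcna to 2.83 for Ube2c, and many of the highest open points have wide bars.

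Without iHET library 3 the estimates were lower and more members passed. In that fit, 19 members were called (4 of S phase and 15 of mitosis), all higher in the colon, with medians of 0.55 and 0.89. Using only the iKO libraries, where that library takes no part, 11 members were called, with medians of 0.57 and 1.09. Using only the iHET libraries, 1 member (Kif23) was called, with medians of 0.86 and 1.64, and without library 3 it was again Kif23, with medians of 0.29 and 0.58. Pcna, Uhrf1, Aurka, Cenpf and Kif23 were called with any of the 10 libraries left out, Ndc80 with 9 of the 10 and Prc1 with 7. The other 7 called members passed with only 3 (Ube2c, Ccnb2, Cdc20, Cdk1 and Nusap1) or 4 (Mki67 and Ccna2) of the 10 libraries left out. With the replicate number as a block, 7 members were called (Pcna, Uhrf1, Aurka, Cenpf, Kif23, Prc1 and Ndc80).

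Markers of other cells also differed between the organs, and their counts stand beside the 10% called higher and 7.29% called lower of all genes tested. Of 9 myeloid markers, 5 were called higher in the colon, with summed levels of 103 to 309 CPM there and 60 to 103 CPM in CD25- PP Tregs. Only 5 of the 9 passed the filter of the CD25- PP comparison, and the others entered through the colon, where they were high. Of 11 epithelial markers tested, 4 were higher and 1 was lower in the colon, with sums of 207 to 2069 CPM against 200 to 455 CPM. Fabp1 was at 0 in all 6 colonic libraries and Olfm4 in 5 of them. Plasma cell markers were higher for 2 of 3 tested (sums of 71.6 to 123 against 20.1 to 40.4 CPM), with Mzb1 at 0 in 3 colonic libraries. B cell markers were lower for 2 of 11 (65.1 to 138 against 108 to 149 CPM), germinal centre B cell markers for 1 of 6 (62.2 to 80.9 against 71.6 to 120 CPM) and Tfr markers for 5 of 6 (1041 to 1536 against 1270 to 1826 CPM). By the filter of the colonic comparison alone, 9 of 11 B cell, 4 of 6 germinal centre B cell and 5 of 6 Tfr markers passed. The part of all these markers in the organ difference of the cell cycle genes was not tested.

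The 3 comparisons of genotype address whether loss of JunB changes these genes. In total PP Tregs, 0 of the 45 members passed an FDR of 0.05 in edgeR's quasi-likelihood test, beside 3.35% of the 12224 genes tested. The count at an unadjusted p under 0.05 was 2, both lower in KO, beside 14% of all genes. Estimates were lower in KO for 37 of 45 members, with medians of -0.11 over S phase and -0.17 over mitosis genes and 0.00 over all genes. Groups did not overlap for 15 members, 2 higher and 13 lower in KO, beside 43.6% of all genes tested. These values depended on single libraries. Without HET library 1 the medians were 0.00 and 0.10, without KO library 1 they were -0.12 and -0.03, without KO library 2 -0.10 and -0.19, and without HET library 2 -0.18 and -0.41.

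Mcm6 had the lowest p of the members. It was at 515 and 433 CPM in HET against 373 and 365 CPM in KO PP Tregs, without overlap, and the log2 fold change was -0.36 (SE 0.10, 95% interval -0.59 to -0.13, edgeR adjusted p = 0.11). It was called under DESeq2, without the filter on low counts and with a replicate block. Aurka was at 9.56 and 7.72 CPM in HET against 5.28 and 5.82 CPM in KO (log2 fold change -0.64, SE 0.24, edgeR adjusted p = 0.26). For both genes each KO library was below each HET library. Other S phase estimates ran from Ccne2, at 10.7 and 10.2 CPM in HET against 9.44 and 7.05 CPM in KO (-0.34, SE 0.22; 609 exon bases in common with Ints8), and Rrm2 (-0.24, SE 0.12) up to Chek1, at 3.36 and 2.37 CPM in HET against 3.98 and 2.26 CPM in KO (0.12, SE 0.39). Among mitosis genes they ran from Ttk, at 3.13 and 2.77 CPM in HET against 1.83 and 1.78 CPM in KO (-0.70, SE 0.35), and Bub1b, at 17.6 and 13.3 CPM in HET against 10.9 and 11.8 CPM in KO (-0.44, SE 0.19), up to Cenpf, at 3.52 and 2.26 CPM in HET against 4.09 and 5.34 CPM in KO (0.70, SE 0.34). Their adjusted p-values were between 0.36 and 0.95. Of these, Ttk, Bub1b, Ccne2 and Rrm2 were lower in KO without overlap, Cenpf was higher in KO without overlap, and Chek1 overlapped.

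By role, estimates of PP Tregs were lower in KO for all 7 mitotic kinases and partners (median -0.29, with 4 of 7 not overlapping, beside the 43.6% of all genes) and all 7 spindle genes (median -0.25). The helicase group had a median of -0.01. These values by role include HET library 1. Without that library, 17 mitosis genes were higher and 9 lower in KO, with a median of 0.10. Mki67 (0.08, 95% interval -0.32 to 0.48) and Cdk1 (0.13, -0.43 to 0.69) were above 0 and Top2a (-0.13, -0.47 to 0.22) below, each with an interval that covers 0. Markers of other cells moved with genotype in these libraries. Epithelial markers were called lower in KO for 8 of 10 tested (sums of 152 to 212 CPM in HET against 58.4 to 64.8 CPM in KO), with Krt19, Lgr5 and Olfm4 each at 0 in 1 KO library. B cell markers had an unadjusted p under 0.05 for 10 of 11, 1 of them called (227 to 265 against 124 to 191 CPM), and Tfr markers were called lower for 5 of 6 (1492 to 1715 against 858 to 871 CPM). Their part in the lower values of the cell cycle genes was not tested.

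In CD25- PP Tregs of the inducible line, 43 members were tested, since Ccnb1 and Bub1 did not pass the filter. No member was called by edgeR's quasi-likelihood test, beside 0% of the 17079 genes tested, and none was called by DESeq2 or by the exact test, which called 35 and 43 of all genes. At an unadjusted p under 0.05 there was 1 member, beside 3.62% of all genes. Estimates were above 0 for 15 and below 0 for 28 members, with medians of -0.06 in both classes. These signs turned with single libraries. Each group held 1 male and 1 female, so leaving out a library also left its group with a single sex. The S phase and mitosis medians were 0.12 and 0.06 without iHET library 2 and 0.04 and 0.10 without iKO library 2, but -0.23 and -0.24 without iHET library 1 and -0.11 and -0.09 without iKO library 1. Groups did not overlap for 8 members, 6 higher and 2 lower in iKO, beside 32.1% of all genes tested.

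The member under that p was Ccnb2, at 6.22 and 7.78 CPM in iHET and 3.65 and 3.35 CPM in iKO (log2 fold change -1.0, SE 0.28, 95% interval -1.68 to -0.32, edgeR adjusted p = 0.999). Chek1 was at 0.756 and 1.45 CPM in iHET and 2.01 and 2.48 CPM in iKO (0.99, SE 0.52), and Kif23 at 8.42 and 8.10 CPM in iHET and 10.3 and 14.8 CPM in iKO (0.59, SE 0.25). Both were higher in iKO without overlap, and Cenpe, a kinesin of the kinetochore, was lower, at 3.68 and 4.74 CPM in iHET and 2.92 and 2.29 CPM in iKO (-0.69, SE 0.34). Mcm7, at 35.9 and 51.2 CPM in iHET and 36.5 and 36.7 CPM in iKO (-0.26, SE 0.20; 557 exon bases in common with Ap4m1, Cops6, Mir25 and Mir93), and Mcm5 (-0.22, SE 0.20) overlapped, as did Cdc6, at 1.58 and 4.12 CPM in iHET and 3.22 and 0.583 CPM in iKO (-0.57, SE 0.83). The edgeR adjusted p was 0.999 for each of them. Intervals were wide here, from -0.49 to 0.52 for Mki67 and from -1.31 to 0.83 for Plk1, so changes of such a size were not detectable.

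In colonic Tregs, the number of the mouse was kept as a block, after the methods of the study. All 45 members were tested and 0 were called, beside 0.00613% of the 16313 genes tested (1 gene, Junb). DESeq2 and the likelihood ratio test, which called 50 and 25 of all genes, called no member either. At an unadjusted p under 0.05 there was 1 member, beside 3.87% of all genes. Estimates were lower in iKO for 37 of 45, with medians of -0.14 over S phase and -0.21 over mitosis genes, and genotypes overlapped for every member, beside 8.35% of all genes without overlap. This direction rested on iHET library 3. Without it, 19 S phase and 21 mitosis genes were higher in iKO and 0 and 4 were lower. The medians were then 0.29 and 0.31, and without iKO library 3, which leaves the same pairs, 0.29 and 0.31 as well. Without another library they lay between -0.41 and -0.37 over S phase and between -0.80 and -0.45 over mitosis genes. Without the block they were -0.26 and -0.59 with all 6 libraries, and 0.23 and 0.37 without iHET library 3.

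Prc1 was the member with the lowest p, with a log2 fold change of -0.75 (SE 0.26, 95% interval -1.39 to -0.10, edgeR adjusted p = 0.947), at the CPM given above. Bub1b was at 10.8, 12.7 and 36.5 CPM in iHET and 10.7, 11.7 and 13.0 CPM in iKO (-0.54, SE 0.33), and Kif23 had -0.46 (SE 0.31). For all 3 the iHET value of library 3 was the highest. The other colonic libraries were at 10.7 to 13.0 CPM for Bub1b, 7.45 to 11.2 CPM for Prc1 and 22.1 to 35 CPM for Kif23. Plk1 had the highest estimate, 0.57 (SE 0.42), and without the block it was -0.02. Of S phase genes, Cdc6 had the lowest, -0.53 (SE 0.86), at 6.43, 3.36 and 26.2 CPM in iHET and 12.5, 4.65 and 2.10 CPM in iKO. Ccne1 had the highest at 0.11 (SE 0.38), and Mcm2, at 141, 106 and 196 CPM in iHET and 137, 111 and 123 CPM in iKO (-0.22, SE 0.17), Mcm6, at 237, 187 and 343 CPM in iHET and 239, 192 and 233 CPM in iKO (-0.17, SE 0.15), and Uhrf1 (-0.24, SE 0.30) had the lowest p-values of the class. Adjusted p was between 0.947 and 0.99 for all of these. The interval of Mki67 ran from -1.37 to 0.72 and that of Top2a from -1.53 to 0.72. The plot of genotype differences sets the 3 comparisons side by side.

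**Figure D5:**
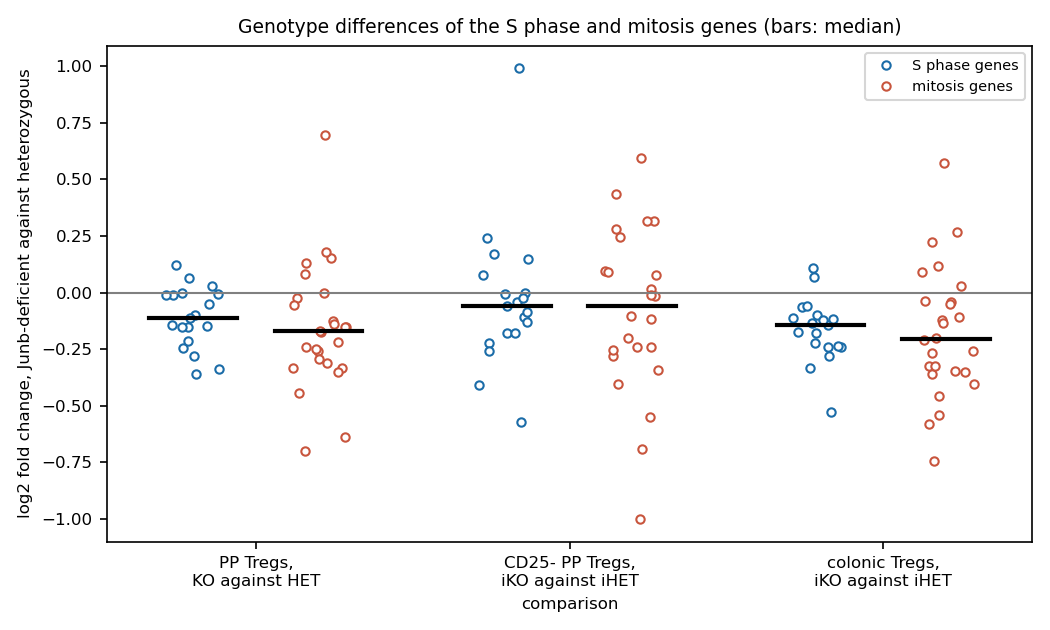
Log2 fold change of KO or iKO against HET or iHET (y axis) for each gene tested (points, S phase in blue and mitosis in red), by population on the x axis, with horizontal bars for the medians; points are spread sideways at random. No gene passed an FDR of 0.05, points lie on both sides of 0 in each population, and the medians of the S phase and mitosis genes are -0.11 and -0.17 in PP, -0.06 and -0.06 in CD25- PP and -0.14 and -0.21 in colonic Tregs.

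The difference of the genotype effect between colonic and CD25- PP Tregs was tested as an interaction over the 10 libraries. By edgeR's quasi-likelihood test 0 members were called, beside 0% of the 18626 genes tested, and DESeq2 called 2 genes, no member among them. At an unadjusted p under 0.05 there was 1 member, beside 3.34% of all genes. It was Kif23, with a difference (colon minus CD25- PP) of -1.15 on the log2 scale (SE 0.47), from the CPM given above. The medians were -0.27 over S phase and -0.42 over mitosis genes, and 0.29 and 0.30 without iHET library 3 of the colon. With the replicate number as a block, as in the colon comparison, they were -0.06 and -0.12. With any other library left out they lay between -0.59 and -0.05 over S phase and between -0.82 and -0.23 over mitosis genes.

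Other cell cycle genes that are not members were described from 4 lists. Of 40 other S phase genes, 9 were higher in the colon than in CD25- PP Tregs and none was lower (median log2 fold change 0.44), beside the 10% called higher and 7.29% called lower of all genes, which hold for all 4 lists. Among them were Orc1, a subunit of the origin recognition complex, at 7.21 to 16.7 CPM in the colon and 2.28 to 5.96 CPM in CD25- PP Tregs (1.64, SE 0.28, edgeR adjusted p = 0.0058), thymidine kinase Tk1 (1.38, SE 0.29) and the licensing factor Cdt1 (0.52, SE 0.11). Of 54 other mitosis genes, 8 were higher and 1 was lower (median 1.00). Only 51 of the 54 passed the filter of the CD25- PP comparison. Pbk and Mastl, among the 8 called higher, passed only through the colon, where they were high, so their calls are not read as organ differences. Lmnb1 (lamin B1) was at 116 to 205 CPM in the colon and 31.8 to 68.3 CPM in CD25- PP Tregs (1.42, SE 0.20, edgeR adjusted p = 0.0021), and Racgap1, the partner of Kif23 in the midzone, had 0.98 (SE 0.16). The lower gene was Smc4, a condensin subunit, at 170 to 294 CPM against 461 to 550 CPM (-1.05, SE 0.16, edgeR adjusted p = 0.0022).

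Of 12 genes of G1 cyclins, their kinases and the Rb family, 4 were higher in the colon and none was lower (median 0.28). Ccnd2 (cyclin D2) was at 715 to 908 CPM in the colon and 383 to 523 CPM in CD25- PP Tregs (0.77, SE 0.11, edgeR adjusted p = 0.0021), Cdk6 at 67.3 to 95.1 against 43.5 to 55.5 CPM (0.67, SE 0.09, adjusted p = 0.0018), and Ccnd1 at 0.781 to 3.45 against 0.146 to 0.756 CPM (2.17, SE 0.51, adjusted p = 0.019). Ccnd1 passed the filter only through the colon, where it was high, so its call is not read as an organ difference. Genes that restrain the cycle were called in both directions. Of 16 Cdk inhibitors and genes of quiescence tested, 3 were higher and 1 was lower in the colon (median 0.35). Cdkn1a (p21), an inhibitor of Cdk2, was at 174 to 392 CPM in the colon and 19.3 to 74.7 CPM in CD25- PP Tregs (2.29, SE 0.35, edgeR adjusted p = 0.0039), and Tob1 had 0.80 (SE 0.21, adjusted p = 0.033). Btg2, which restrains entry into S phase, was the lower gene, at 697 to 1128 CPM against 1567 to 2108 CPM (-0.93, SE 0.14, adjusted p = 0.0021). Of the genes named from these lists, Orc1, Lmnb1, Racgap1, Smc4, Ccnd2, Cdk6, Cdkn1a and Btg2 were called with any of the 10 libraries left out. Cdt1 was called with 8 of them left out, Tk1 and Ccnd1 with 7 and Tob1 with 5, at edgeR adjusted p of at most 0.063, 0.061, 0.080 and 0.13.

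By genotype, 1 gene of the 4 lists was called in PP Tregs, beside 3.35% of the 12224 genes tested. Cdc25b, a phosphatase that activates Cdk1, was at 85.1 and 71.3 CPM in HET against 51.0 and 53.6 CPM in KO (log2 fold change -0.58, SE 0.11, edgeR adjusted p = 0.036). Without HET library 1 the fold change was -0.45 (edgeR adjusted p = 0.31), without HET library 2 -0.71 (edgeR adjusted p = 0.093) and without KO library 1 -0.55 (edgeR adjusted p = 0.073), so the call was lost in each. It was at 87.3 and 105 CPM in iHET and 80.6 and 91.2 CPM in iKO CD25- PP Tregs. In the colon it was at 68.4, 59.9 and 98.9 CPM in iHET and 45.4, 72.4 and 63.6 CPM in iKO (-0.32, SE 0.21, edgeR adjusted p = 0.947), where genotypes overlapped. The next p-values in PP Tregs were those of Cdkn2c, an inhibitor of Cdk4 and Cdk6 (0.50, SE 0.12, adjusted p = 0.070), Ccnd2 (0.30, SE 0.08, adjusted p = 0.13), Gadd45b (0.45, SE 0.13, adjusted p = 0.13) and Cdkn1a (-0.31, SE 0.10, adjusted p = 0.17), none of them called. The others with the lowest p of their list were Slbp (-0.19), Dbf4 (0.26) and Blm (0.42) of S phase, Smc4 (0.23) and Spag5 (-0.57) of mitosis and Rbl2 (0.24) and E2f3 (0.24) of G1, with edgeR adjusted p from 0.33 to 0.72. In CD25- PP Tregs 0 of the genes of these lists were called, beside 0% of all genes tested. The lowest p was that of Melk (1.24, SE 0.28, edgeR adjusted p = 0.999), a kinase of dividing cells. Next in the lists were Cdca3 (-1.23) and Kif4 (-1.03) of mitosis, Pole (-1.01), Orc1 (0.84) and Rfc4 (-0.37) of S phase, E2f3 (1.08), Rbl2 (0.39) and Rb1 (-0.13) of G1, and Cdkn1c (1.10), Klf2 (-0.55) and Cdkn2c (0.57) of the inhibitors. In colonic Tregs 0 were called as well, beside 0.00613% of all genes tested, and the lowest p was that of Cdk6 (-0.37, SE 0.11, edgeR adjusted p = 0.947). Next in the lists were Ccng1 (-0.27), Cdkn2c (-0.48) and Foxo1 (-0.27) of the inhibitors, Ccnd3 (-0.18) and Rb1 (-0.25) of G1, Smc4 (0.24) and Aspm (-0.49) of mitosis, and Pola1 (-0.37), Chaf1a (-0.65) and Cdc7 (0.27) of S phase.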

How the data were processed

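RNA-seq was performed on 14 libraries of sorted Tregs, made with the same SMARTer v4 kit. The authors trimmed reads with Trim Galore, aligned them with STAR to GRCm38, keeping only uniquely mapped reads, and assigned them to GENCODE genes with featureCounts at default settings, which ignore strand, and they used only the forward read of the paired-end inducible libraries. The deposited values are these counts per gene, as whole numbers without normalization. Reads that map to copies of a gene can therefore be lost, and reads in exons that genes have in common are not assigned.

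The 2 tables, of 4 and 10 libraries, were analysed separately in R 4.3.3 with edgeR 4.0.16. Genes with at least 1 CPM in as many libraries as the smaller group were kept, counts were normalised by TMM (prior count 1), and the quasi-likelihood test was adjusted by Benjamini-Hochberg over all genes tested, with an FDR of 0.05. CPM are TMM-normalised, floors and intervals of counts cover counting error only, and SE and 95% intervals are those of the fitted coefficient. DESeq2 1.42.0, other normalizations, filters and tests, blocks and left-out libraries were alternatives, and the fits were tested on simulated data. Symbols, exon lengths and overlaps came from GENCODE M21, matched by ID.

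The members and lists were chosen with earlier results of these data known. The genes named are 12 fixed members, in each comparison the 3 members of each class with the lowest p, those with the highest and lowest fold change and every member called (over 12, the 12 with the lowest p), and, of other lists, genes called by genotype and the 3 of each list with the lowest p. Nusap1 and Cdk1, called between organs, and Kif11, Hmmr, Kif20a, Tpx2, Birc5, Top2a and Plk1 in that comparison were added after values were seen. The labels state no cage, so the number of the mouse was taken for it in the colon, after the methods of the study. Deviations of same-numbered libraries had r of 0.098 in PP, 0.101 in CD25- PP and 0.062, 0.293 and -0.088 in colonic Tregs. The numbers were therefore not taken as pairs elsewhere. In the inducible line the number also goes with sex, so the main fits of CD25- PP Tregs, the organs and the interaction leave sex out. There it enters only through the replicate block among the alternatives. In the colon some unlike numbers had a higher r, 0.182 for iHET library 3 with iKO library 1 and 0.069 for iHET library 1 with iKO library 3. These r thus do not show that the numbers are cages. Nothing in the labels ties replicates to separate experiments, and p-values measure the spread between these mice. The full sort gate of PP Tregs of the Foxp3-YFP-cre mice is not reported here.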

Additional observations from a re-analysis of the deposited data

How the results depend on the processing

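The count of members called by genotype was 0 in CD25- PP and colonic Tregs and for the difference between organs under every alternative run. In PP Tregs it was 1 (Mcm6) under DESeq2, without the filter on low counts and with the replicate block, and 0 with any library left out. The replicate block changed no other call of a member by genotype. Between organs, 25 members were called under DESeq2, 38 without the filter on low counts, 7 with the replicate block, 1 with iHET libraries only and 6 to 26 with 1 library left out. It was 1 with iHET libraries only and without iHET library 3 of the colon, an alternative chosen after seeing the data, as was the colon fit without both the block and that library. The causes of these differences were not tested.

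A median was counted as moved when it shifted by more than the pooled SD of the class means within groups. The medians of PP Tregs moved without HET library 1 (0.00 and 0.10). Those of the interaction moved without iHET library 3 (0.29 and 0.30). That of mitosis genes between organs moved with iHET libraries only and without iHET library 3 (0.58). In the colon the SD includes iHET library 3 itself. Without that library the colon medians changed sign, from -0.14 and -0.21 to 0.29 and 0.31, but were not counted as moved. Signs of uncalled members turned as follows. In the colon, Plk1 was -0.016 without the block and -0.0073 in the fit of all 10 libraries, and without the block and iHET library 3 Mcm6 was 0.058, Uhrf1 0.089, Cdc6 0.38 and Bub1b 0.0021. Between organs, Cenpa was -0.00061 with DESeq2 or its size factors, -0.0037 with upper-quartile factors, -0.0031 with at least 10 counts in every library, -0.042 with the replicate block, -0.094 with iKO libraries only and -0.089 with iHET libraries only and without iHET library 3, where Plk1 was -0.014 and Ccne1 -0.0021. With libraries left out, the range was -0.34 to 0.46 for Chek1 in PP Tregs. In CD25- PP Tregs it was -0.50 to 0.017 for Mcm7, -0.44 to 0.025 for Mcm5 and -2.23 to 0.26 for Cdc6. In the colon it was -0.37 to 0.0091 for Mcm2, -0.28 to 0.027 for Mcm6, -0.54 to 0.21 for Uhrf1, -0.26 to 0.57 for Ccne1 and -1.58 to 0.72 for Cdc6. Between organs it was -0.20 to 0.024 for Mcm6 and -0.11 to 0.13 for Cenpa. Depth limits Ccnb1 and Bub1 in CD25- PP Tregs, with 7 and 2 counts in the lowest library.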

Other observations

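Hmmr, a spindle protein, differed in level between the tables of the 2 mouse lines in the way described for Kif11 and Cenpf. It was at 2.29 to 7.17 CPM in the 4 libraries of total PP Tregs, at 10.2 to 12.6 CPM in CD25- PP Tregs and at 10.7 to 24.6 CPM in the colon. For Ttk, Bub1 and Plk1 the values of total PP Tregs were instead above those of CD25- PP Tregs, at 1.78 to 3.13 against 0.608 to 1.24 CPM for Ttk, 3.30 to 6.19 against 0.0688 to 1.18 CPM for Bub1 and 4.84 to 8.10 against 1.49 to 2.32 CPM for Plk1. These tables were normalised separately, and no test was made across them.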
